A study of Mus musculus with 9 samples.

Results

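The lymphatic endothelial identity genes described here are *Prox1*, *Sox18*, *Foxc2*, *Lyve1*, *Pdpn*, *Ccbe1*, *Reln* and *Mmrn1*, taken by their symbols from RNA-Seq counts of the mouse iris. All 8 were among the 18349 genes listed, and all 8 passed the filter on low counts that left 15010 genes for testing. The study compared 3 groups of 3 libraries, each prepared from 3 pooled irises of C57BL/6J-background mice. The outer edge of each iris was trimmed off beforehand, so the counts describe the central part of the iris. Sham VEGFR3 fl/fl mice, which the labels call WT, received PBS on the cornea at 6 weeks of age. Injured VEGFR3 fl/fl mice, also called WT, had 0.5 μl of sodium hydroxide at 1 M placed there for 60 seconds, a corneal alkali injury (CAI). Injured VEGFR3 iLECko mice received the same injury and carried, beside the floxed *VEGFR3* (*Flt4*) alleles, a tamoxifen-inducible Cre driven by *Prox1*, so that deletion can occur only in cells that express *Prox1*. Tamoxifen was given to all 3 groups at 80 mg/kg from day 13 to day 17, and irises were collected at 10 weeks, 28 days after the injury. The mice of the Sham and injured VEGFR3 fl/fl groups thus shared the floxed alleles and tamoxifen, and lacked Cre. The 3 groups are called Sham, injured fl/fl and iLECko from here on.

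Lymphatic endothelial cells (LECs) line the vessels that drain tissue fluid and carry leukocytes to lymph nodes, and the healthy iris is held to lack such vessels. In development, SOX18 and NR2F2 switch on *Prox1* in venous endothelial cells, PROX1 then sets and maintains lymphatic identity, and VEGF-C acting on VEGFR3 makes the new LECs migrate and sprout. CCBE1 helps ADAMTS3 process VEGF-C, FOXC2 shapes collecting vessels and their valves, LYVE1 and podoplanin (PDPN) sit on the LEC surface, and reelin (RELN) and multimerin 1 (MMRN1) are secreted by LECs.

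Several of these genes are not private to LECs. PROX1 is also made in the lens and in some retinal neurons, LYVE1 on tissue macrophages, PDPN on fibroblasts and epithelia, SOX18 in blood endothelium, RELN in neurons and MMRN1 in platelets. In RNA of a mixed tissue such as the trimmed iris, a change in the number of cells of a type and a change in the RNA of each cell cannot be told apart.

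Positions are given from RefSeq on GRCm38.p6, which the mm10 build named in the submitters' processing notes matches. *Prox1* (NCBI Gene ID 19130) lies at chr1:190118035-190170827, *Sox18* (20672) at chr2:181669837-181671640 and *Foxc2* (14234) at chr8:121116171-121118895. *Lyve1* (114332) lies at chr7:110850607-110862953, *Pdpn* (14726) at chr4:143267409-143299564, *Reln* (19699) at chr5:21884454-22344705 and *Mmrn1* (70945) at chr6:60944317-60989378. *Ccbe1* has NCBI Gene ID 320924. Exons of *Prox1*, *Reln* and *Ccbe1* overlap the antisense genes *Prox1os*, *Gm10475* and *Gm15958* by 133, 125 and 173 bases. None of the 3 antisense genes is listed in the counts, and without strand information their reads cannot be told apart from those of the member.

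Promoter windows of RefSeq (GRCm38.p6) were taken for 4 of the 8 genes in 5 windows, 2 of them for *Prox1*. No window was matched for *Lyve1*, *Foxc2* and *Sox18*, and *Ccbe1* was left out of the search. The 250 bases before each start were searched on both strands for AACAAT (a SOX-type core), GTAAACA (a forkhead-type core) and AGGAAGT (an ETS-type core). The first and second of these can share bases but did not here, and the 3 sets of letters stand in 9.42%, 3.17% and 7.69% of all 32851 promoters. The forkhead letters occurred once, in *Pdpn*, on the reverse strand, and the SOX letters occurred once, in *Mmrn1*. The ETS letters were in none of the 5 windows, and neither *Prox1* window nor that of *Reln* held any of the 3. Of the windows, 3 are shown, because *Pdpn* and *Reln* moved in opposite directions after injury and *Mmrn1* varied most between libraries. Capitals mark the match. The windows lie at chr4:143299565-143299814 (minus strand) for *Pdpn*, chr5:22344706-22344955 (minus strand) for *Reln* and chr6:60944067-60944316 (plus strand) for *Mmrn1*.
Pdpn promoter: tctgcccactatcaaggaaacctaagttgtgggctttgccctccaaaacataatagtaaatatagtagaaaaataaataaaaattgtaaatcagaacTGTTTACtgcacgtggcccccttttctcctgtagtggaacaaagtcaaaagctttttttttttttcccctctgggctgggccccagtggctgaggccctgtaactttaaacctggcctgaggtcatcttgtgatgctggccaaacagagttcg
Reln promoter: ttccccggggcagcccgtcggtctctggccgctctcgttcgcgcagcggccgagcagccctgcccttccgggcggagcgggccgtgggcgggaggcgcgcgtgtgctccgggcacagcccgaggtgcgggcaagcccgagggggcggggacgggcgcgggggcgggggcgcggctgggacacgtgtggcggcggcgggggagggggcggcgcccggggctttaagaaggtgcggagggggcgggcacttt
Mmrn1 promoter: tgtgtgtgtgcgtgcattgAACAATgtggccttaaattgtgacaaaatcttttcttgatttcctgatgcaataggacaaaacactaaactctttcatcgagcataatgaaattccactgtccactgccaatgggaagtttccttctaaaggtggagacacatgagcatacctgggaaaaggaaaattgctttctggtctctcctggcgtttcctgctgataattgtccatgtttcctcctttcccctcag
The *Reln* window was 80% G and C, against 43.2% for *Pdpn*, 42.4% for *Mmrn1*, 64.8% and 56% for the *Prox1* windows and a median of 52.4% over all promoters.

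Total counts lay between 16617187 and 18306359 per library, and normalized expression is given as CPM, counts scaled to the size of each library with TMM factors. Differences are log2 fold changes with SE from edgeR's quasi-likelihood test on all 9 libraries, with p-values adjusted by the Benjamini-Hochberg method over all genes tested. A gene is called when the adjusted p is under 0.05 and the change exceeds 1.5-fold. The p-values measure the spread between these pooled libraries. Iris genes were well represented, with at least 2566 counts of the pigment genes *Pmel*, *Mlana*, *Tyr* and *Dct* and at least 3690 of the muscle genes *Acta2* and *Myh11* in every library, whereas the ciliary body genes *Atp6v1c2* and *Cacna1e* had 3 to 27 and 19 to 33. Their levels were not even over the 9 libraries of the 3 groups: *Pmel* ran from 599 to 9220 CPM and *Myh11* from 224 to 3380.

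The targeted gene did not separate the genotypes. *Flt4* had 282, 237 and 265 counts in Sham, 277, 353 and 400 in injured fl/fl and 478, 370 and 476 in those labelled iLECko. It was thus not lower in the libraries labelled iLECko, with a log2 fold change of 0.34 ± 0.146 (SE; edgeR adjusted p = 0.2) against injured fl/fl and overlapping groups. Where the floxed exons lie was not examined, so that a count over the whole gene is a weak check of the labels. The libraries are therefore called by their labels throughout.

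Replicate 1 of the injured fl/fl group stood apart from its group. Its counts differed from those of replicates 2 and 3 with a chi-square per degree of freedom of 67.4 to 76.2, against 5.13 to 27.9 for the other pairs of replicates. Results that rest on it are given with and without it.

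After CAI, the 8 genes split into 3 that rose, 1 that fell and 4 that were not called. *Sox18*, *Foxc2* and *Pdpn* rose, and *Reln* fell. *Prox1*, *Lyve1*, *Mmrn1* and *Ccbe1* were not called, and in each of these 4 the injured libraries overlapped those of Sham. The 4 called genes of 8 stand beside 39.7% called among all genes tested (22.1% higher and 17.5% lower). The same 4 genes had no overlap between the groups, as did 66.3% of all genes tested. The median log2 fold change of the members was 0.58, against 0.01 over all genes. The shares of called genes over all genes also apply to the marker lists described below. Without injured fl/fl replicate 1, 4 members were again called, 3 of them shared, with *Pdpn* lost and *Mmrn1* gained as lower.

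*Prox1*, the master regulator of LEC identity, was scarce in every group. It had 55, 17 and 27 counts in the 3 Sham libraries, 74, 51 and 10 in the injured fl/fl libraries and 16, 20 and 21 in those labelled iLECko. The injured fl/fl group thus held both the highest and the lowest count of the series, while the iLECko libraries lay close together. The means were 2.68 ± 1.98, 1.84 ± 1.08 and 1.09 ± 0.141 CPM (SD, n = 3) in injured fl/fl, Sham and iLECko, and no neighbours in this order differed beyond their spread. Injury changed *Prox1* by 0.54 ± 0.638 (log2, SE; 95% interval -0.9 to 1.98; edgeR adjusted p = 0.49), and the value was -0.05 without injured fl/fl replicate 1. The difference between the injured groups was -1.29 ± 0.662 (95% interval -2.78 to 0.21; edgeR adjusted p = 0.256), or -0.70 without that library.

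Markers of other eye tissues varied between libraries as well. The 11 neuronal and retinal genes summed to 113, 53.4 and 62.5 CPM in Sham, so that the 3 Sham libraries ranked as they did for *Prox1*. The sums were 22.2, 139 and 34.6 CPM in injured fl/fl, where the library with the most *Prox1* was the lowest, and 75.6, 36.4 and 63.9 in iLECko, where *Prox1* hardly varied. Of the 11 genes, 8 were tested, and 1 was at 0 in 1 iLECko library. After injury 2 of the 8 rose and 1 fell (median log2 fold change -0.15). The lens list of 13 genes summed to 116 to 152, 53 to 160 and 95 to 106 CPM. Only 4 of its genes were tested, of which 2 rose and 1 fell after injury, up to 7 of the 13 were at 0 in a library, and *Cryaa*, a lens crystallin, had 0 to 2 counts in Sham and 48, 607 and 541 in injured fl/fl. *Bfsp2*, a lens filament gene, fell after injury (-0.91; edgeR adjusted p = 0.0225), with 553, 1552 and 1286 counts in injured fl/fl, against 2016 to 2596 in Sham. Most of each lens sum was *Bfsp2*, at 112 to 147 CPM in Sham and 33.6 to 90.9 in injured fl/fl. In iLECko it was at 77.9 to 82.3 CPM. The lens sums therefore do not rank the libraries by the other lens genes. The part of retinal or lens RNA in the *Prox1* counts was not tested.

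*Sox18*, which acts above *Prox1* in development, varied little between replicates. Its counts were 523, 504 and 509 in Sham, 1430, 1364 and 1632 in injured fl/fl and 1300, 1206 and 1417 in iLECko. Every injured library lay far above every Sham library, and the injured genotypes overlapped. The means were 28.7 ± 0.252, 86.8 ± 6.93 and 75.3 ± 6.65 CPM (SD, n = 3). *Sox18* rose 3.02-fold after injury (1.60 ± 0.0864; edgeR adjusted p = 8.04e-07) and was 2.62-fold above Sham in iLECko (edgeR adjusted p = 2.34e-06). Between iLECko and injured fl/fl it differed by -0.20 ± 0.0833 (95% interval -0.39 to -0.02; edgeR adjusted p = 0.177), which is not called.

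*Foxc2*, the regulator of collecting vessels and valves, had the largest fold change after injury among the called members with all 9 libraries. It had 52, 44 and 58 counts in Sham, 291, 181 and 200 in injured fl/fl and 269, 168 and 182 in iLECko. Replicate 1 was highest in both injured groups, and the lowest injured library, with 168 counts, lay well above the highest Sham library, with 58. The means were 2.88 ± 0.39, 13.2 ± 3.85 and 11.9 ± 3.34 CPM (SD, n = 3). The rise was 4.59-fold in injured fl/fl (log2 fold change 2.2 ± 0.267; edgeR adjusted p = 0.000101) and 4.13-fold in iLECko against Sham (edgeR adjusted p = 0.000204). The injured groups differed by -0.15 (95% interval -0.71 to 0.4; edgeR adjusted p = 0.727), an interval that still allows a moderate difference either way.

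Most of the blood endothelial list rose with *Sox18* and *Foxc2*. Of its 18 genes, 13 rose and 2 fell after injury, beside 22.1% called higher and 17.5% called lower among all genes tested. The median log2 fold change was 1.38. The summed level went from 1200 to 1230 CPM in Sham to 2750 to 2810 in injured fl/fl and 2480 to 2780 in iLECko. *Pecam1* (CD31) rose by 2.61 and *Cdh5* (VE-cadherin) by 2.08 on the log2 scale (edgeR adjusted p = 2.36e-07 and 7.31e-06). The study stained both proteins in lymphatic and blood vessels of the injured iris, so these genes do not separate blood from lymphatic endothelium. The 2 genes that fell were *Flt1* (-0.84; edgeR adjusted p = 0.000184) and *Cldn5* (-0.79; 0.00145). No gene of this list was at 0 in any library. The parts of blood endothelium, fibroblasts and other cell types in the rise of *Sox18* and *Foxc2* were not tested.

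**Figure D1:**
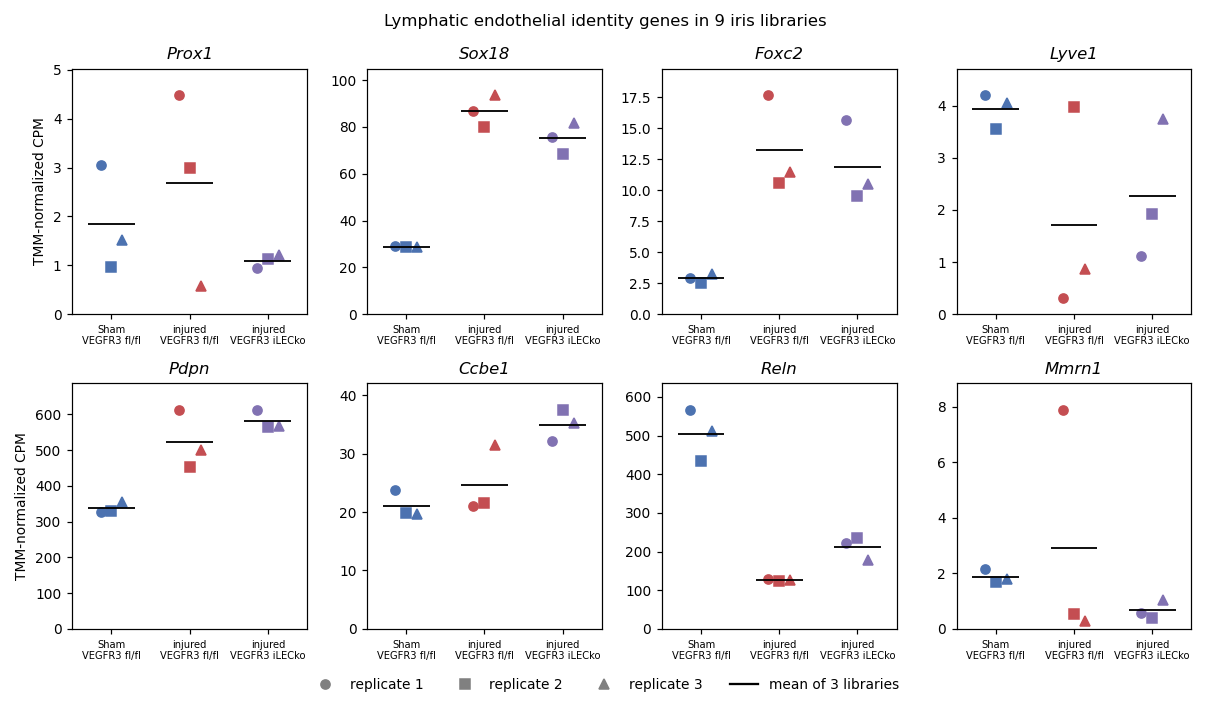
TMM-normalized CPM (y axes, each from 0) of the 8 genes in the 9 libraries, with groups on the x axes, marker shapes for replicate numbers and a bar for the mean of 3 libraries. *Sox18*, *Foxc2* and *Reln* separate Sham from the injured groups, whereas injured fl/fl replicate 1 stands far above the others for *Mmrn1* (7.89 CPM) and lowest for *Lyve1* (0.303 CPM).

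*Lyve1*, the hyaluronan receptor of lymphatic capillaries, was highest and most even in Sham. Its counts were 76, 63 and 72 there, 5, 68 and 15 in injured fl/fl and 19, 34 and 65 in iLECko. In each injured group 1 library reached the Sham level and the others lay below it. The means were 3.94 ± 0.34, 2.26 ± 1.35 and 1.72 ± 1.98 CPM (SD, n = 3) in Sham, iLECko and injured fl/fl, and neighbours in this order overlapped. Injury gave -1.20 ± 0.743 (95% interval -2.87 to 0.48; edgeR adjusted p = 0.193), and without injured fl/fl replicate 2 the value was -2.73 with an edgeR adjusted p of 0.00451, which is called. Without replicate 1, the lowest of the series, it was -0.70 with an edgeR adjusted p of 0.354. Compared with injured fl/fl, iLECko gave 0.39 ± 0.752 (edgeR adjusted p = 0.772), which ran from -0.17 to 1.93 as single libraries were left out. The study's whole-mount staining ran otherwise: vessels positive for LYVE1 were absent in Sham, formed after CAI and were blocked in iLECko. Staining of vessels and RNA counts of a mixed tissue are unlike measures.

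Among the 14221 genes with a mean of at least 1 CPM, the profile most like that of *Lyve1* over the 9 libraries belonged to *Cd163*, a scavenger receptor of tissue macrophages. Likeness was measured as the root mean square difference of centred log2 CPM, which was 0.433 for *Cd163*, against a spread of 1.14 of *Lyve1* itself. *Cd163* had 125, 110 and 117 counts in Sham, 10, 108 and 35 in injured fl/fl and 76, 67 and 214 in iLECko. It was thus lowest in the same library as *Lyve1* and highest within each injured group in the same library. *Lrp1b* (0.457) and *Adcy8* (0.464) came next. *Folr2*, another gene of tissue-resident macrophages, had 91, 92 and 81 counts in Sham, 55, 314 and 181 in injured fl/fl and 114 to 157 in iLECko. Within injured fl/fl its lowest and highest libraries were those of *Lyve1*, but across groups its means, 4.93, 10.7 and 7.56 CPM, ran in the opposite order to those of *Lyve1*.

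The macrophage list as a whole did not follow *Lyve1*. Of its 16 genes, 14 rose after injury, beside 22.1% called higher among all genes tested, and the other 2 were not called. The median log2 fold change was 2.66, or 2.6 with a gene near 0 in Sham at its bound. The summed level of the list was 449 to 459 CPM in Sham, 3540 to 3940 in injured fl/fl and 2320 to 2540 in iLECko. Between the injured groups 6 of the 16 were called lower in iLECko, beside 0.466% of all genes tested. Among them were *C1qa* (-0.79, edgeR adjusted p = 0.0263), *C1qb* and *C1qc*, complement components. The part of macrophages in the *Lyve1* counts was not tested.

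*Pdpn*, a mucin-type surface glycoprotein that binds platelet CLEC-2, was the most abundant member per length. It had 5925, 5830 and 6304 counts in Sham, 10096, 7733 and 8688 in injured fl/fl and 10459, 9982 and 9855 in iLECko. All injured libraries exceeded all Sham libraries, and the injured genotypes overlapped. The means were 337 ± 15.2, 521 ± 82.4 and 581 ± 25.8 CPM (SD, n = 3). *Pdpn* rose 1.54-fold after injury (0.63 ± 0.113; edgeR adjusted p = 0.00113) and stood 1.72-fold above Sham in iLECko (edgeR adjusted p = 0.000376). The first of these lay just past the 1.5-fold threshold and fell short of it without injured fl/fl replicate 1, at a log2 fold change of 0.50, and with scaling by library size alone, at 0.45. The injured groups differed by 0.16 (95% interval -0.1 to 0.41; edgeR adjusted p = 0.406).

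Fibroblast genes rose in the same libraries. Of 12, 10 rose after injury, beside 22.1% called higher among all genes tested, and the other 2 were not called. The median log2 fold change of the 12 was 2.84. Their summed level was 4100 to 4690 CPM in Sham, 17800 to 25600 in injured fl/fl and 19500 to 23600 in iLECko, and 1 of the 12 was at 0 in 1 Sham library. Surface epithelial genes went the other way, with 6 of the 8 tested called lower, beside 17.5% of all genes tested. Their sum was 138 to 191 CPM in Sham, 50.2 to 84.6 in injured fl/fl and 90.6 to 113 in iLECko. *Perp* made up most of it, at 102 to 113 CPM in Sham and 40.7 to 71.5 in injured fl/fl. In iLECko *Perp* was at 81.2 to 103 CPM and not called against Sham (edgeR adjusted p = 0.261). Of the 8, 3 had no overlap between Sham and injured fl/fl, and *Krt5* ran from 7 to 328 counts in Sham. The part of fibroblasts or surface epithelium in the *Pdpn* counts was not tested.

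*Ccbe1*, the secreted cofactor of VEGF-C processing, was not called after injury in fl/fl mice and was higher in iLECko than in Sham. Its counts were 428, 350 and 349 in Sham, 348, 367 and 548 in injured fl/fl and 551, 662 and 611 in iLECko. The 3 iLECko libraries were the highest of the series, while replicate 3 of injured fl/fl came close to them. The means were 21 ± 2.31, 24.7 ± 5.87 and 35 ± 2.66 CPM (SD, n = 3). Injury gave 0.23 ± 0.159 (95% interval -0.13 to 0.59; edgeR adjusted p = 0.238), and iLECko lay 1.66-fold above Sham (0.73; edgeR adjusted p = 0.00373). The difference between iLECko and injured fl/fl was 0.50 ± 0.158 (95% interval 0.14 to 0.86; edgeR adjusted p = 0.111), not called, although the groups did not overlap. It was called without injured fl/fl replicate 3, at 0.71 with an edgeR adjusted p of 0.0316.

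*Reln*, the secreted glycoprotein reelin, was the member that fell. It had 10238, 7694 and 9110 counts in Sham, 2126, 2118 and 2191 in injured fl/fl and 3814, 4139 and 3090 in iLECko. The 3 groups did not overlap at all, with Sham highest, iLECko between and injured fl/fl lowest and nearly constant. The means were 505 ± 66.6, 212 ± 29.9 and 126 ± 2.55 CPM (SD, n = 3) in that order. *Reln* fell by 2.0 ± 0.129 on the log2 scale after injury, or 4-fold (edgeR adjusted p = 2.12e-06), and iLECko was 2.38-fold below Sham (edgeR adjusted p = 4.19e-05). Among the neuronal genes, *Rbfox3* fell after injury by 1.88 (edgeR adjusted p = 0.00108), and *Stmn2* and *Tubb3* rose by 2.36 and 2.12 (edgeR adjusted p = 0.00173 and 0.000137). *Syt1* was at -1.92 (edgeR adjusted p = 0.0836) and fell by 2.71 in iLECko against Sham (edgeR adjusted p = 0.03). After injury *Slc17a7* (-0.35; edgeR adjusted p = 0.836) and *Pde6b* (-0.87; 0.617) were not called. The part of neuronal RNA in the *Reln* counts was not tested.

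**Figure D2:**
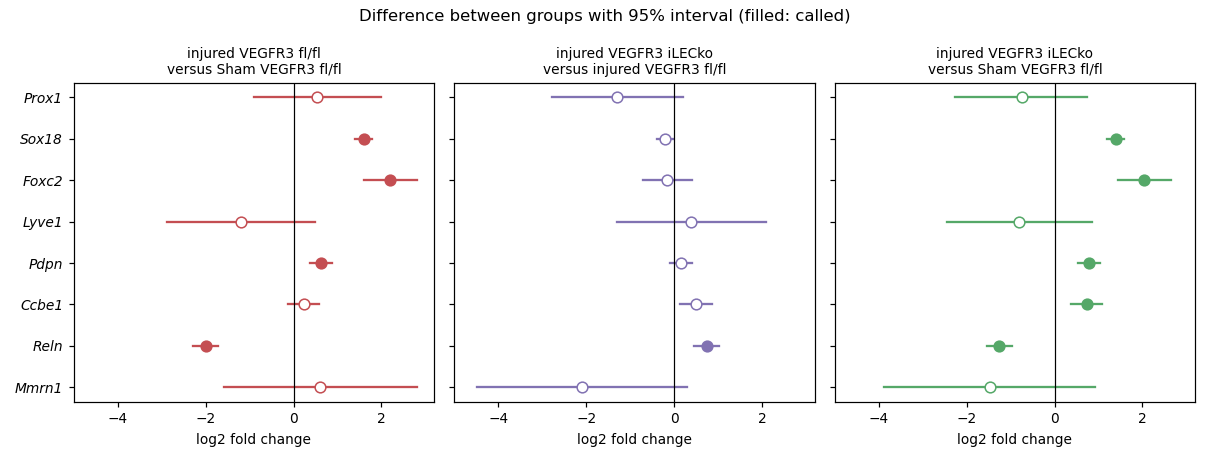
Log2 fold changes (x axes) of the 8 genes in 3 comparisons between groups, with 95% intervals as lines and filled points for called genes. Intervals are narrow for *Sox18*, *Pdpn*, *Ccbe1* and *Reln* and wide for *Prox1*, *Lyve1* and *Mmrn1*, and only *Reln* is filled between the injured groups.

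Between the injured groups, *Reln* was the only member called, 1 of 8 beside 1.04% of all genes tested (0.573% higher and 0.466% lower). At an unadjusted p under 0.05 there were 3 members, *Reln*, *Ccbe1* and *Sox18*, beside 24.5% of all genes. *Reln* was 1.68-fold higher in iLECko (0.75 ± 0.125; 95% interval 0.46 to 1.03; edgeR adjusted p = 0.0361). *Reln* and *Ccbe1* were the 2 members without overlap, both higher in iLECko, beside 26.7% of all genes tested. The median difference of the members was 0, against -0.01 over all genes. The log2 fold change of *Reln* stayed between 0.67 and 0.86 under every alternative tried, whereas its adjusted p ranged from 3.95e-06 with DESeq2 to 0.137 without iLECko replicate 2. It passed the adjusted p threshold in 3 of the 9 fits that left out 1 library, and missed it without Sham replicate 1 (0.0579) or 3 (0.0755), injured fl/fl replicate 1 (0.051) or 2 (0.0504), or iLECko replicate 1 (0.0752) by edgeR's test. It also missed it with the 6 compared libraries alone (0.0989), where edgeR called 0 of 14677 genes tested and 2 members had an unadjusted p under 0.05, whereas DESeq2 on the 9 libraries called *Reln*.

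Against Sham, the libraries labelled iLECko had 5 of 8 members called, beside 34.8% of all genes tested (19.7% higher and 15.0% lower). *Sox18*, *Foxc2*, *Pdpn* and *Ccbe1* were higher and *Reln* lower. These 5 and *Mmrn1* had no overlap with Sham, as did 66.5% of all genes tested. This comparison shares its Sham libraries with that of the injured fl/fl group.

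*Mmrn1*, the secreted multimerin used as a LEC marker, depended on a single library. Its counts were 39, 30 and 32 in Sham, 130, 9 and 5 in injured fl/fl and 10, 7 and 18 in iLECko. Of the 6 injured libraries, 5 lay below all Sham libraries, and injured fl/fl replicate 1 lay far above them. The means were 2.9 ± 4.32, 1.89 ± 0.244 and 0.672 ± 0.329 CPM (SD, n = 3) in injured fl/fl, Sham and iLECko. Injury gave 0.61 ± 0.97 (95% interval -1.58 to 2.81; edgeR adjusted p = 0.607) with all libraries and -2.20 with an edgeR adjusted p of 0.00434 without replicate 1, so that the direction turned. Compared with injured fl/fl, iLECko gave -2.09 ± 1.06 (edgeR adjusted p = 0.249), and 0.72 without that library.

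*Mmrn1* was lower in iLECko than in Sham in 3 of 3 libraries, at -1.48 ± 1.06 (95% interval -3.88 to 0.92; edgeR adjusted p = 0.266). The injured fl/fl libraries enter this result only through the shared filter, normalization and estimate of the spread. With the 6 compared libraries alone, the edgeR adjusted p was 0.00815, and it was 0.0114 without injured fl/fl replicate 1. Of 11 platelet genes 6 were tested, and 3 of these rose after injury and 3 were not called (median log2 fold change 1.72). Among all genes tested, 22.1% were called higher. The summed level of the platelet list was 21.5 to 26.8 CPM in Sham and 33.6, 122 and 41.9 in injured fl/fl. The library richest in *Mmrn1* thus had the lowest sum of its group. *Pf4* made up much of this sum, at 17.4 to 108 CPM in injured fl/fl, against 5.57 to 6.55 for *Gp1ba*, the next gene by mean. The sum therefore does not rank the libraries by the other platelet genes. In iLECko the sum was 40, 47.9 and 118 CPM, and the part of platelet RNA in the *Mmrn1* counts was not tested.

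**Figure D3:**
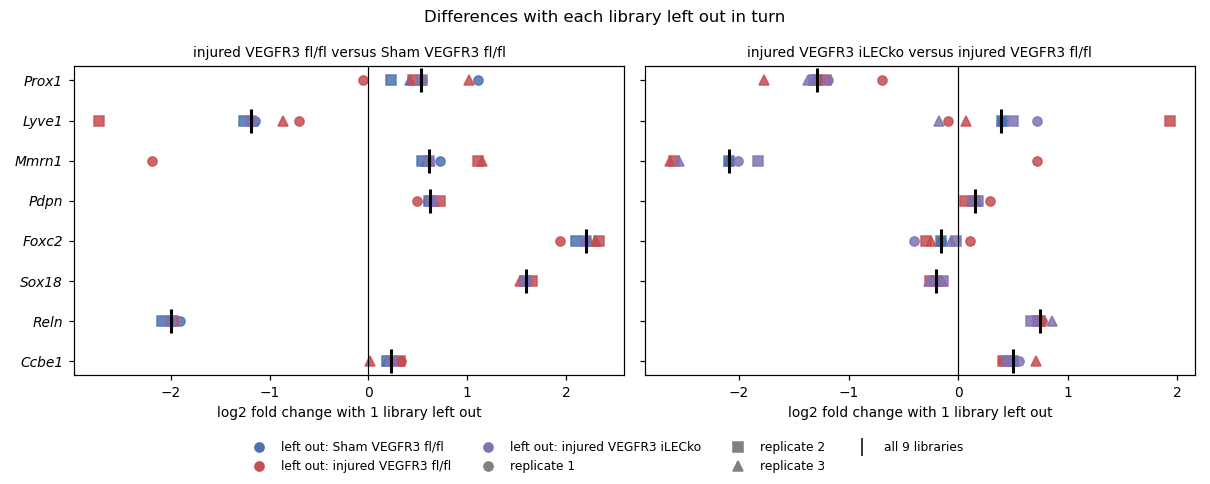
Log2 fold changes (x axes) of the 8 genes after injury (left) and between the injured groups (right) with each library left out in turn, colored by group and shaped by replicate number, with a black bar for all 9 libraries. Without injured fl/fl replicate 1, *Mmrn1* moves from 0.61 to -2.20 on the left and from -2.09 to 0.72 on the right, while *Sox18*, *Foxc2* and *Reln* on the left stay on their side of 0.

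Of 19 other genes of the lymphatic lineage, injured fl/fl replicate 1 was the highest of its group for 8, the lowest for 8, *Flt4* among them, and in the middle for 3. It was the highest of the series for 6, *Ccl21a*, *Stab2*, *Ackr2*, *Vegfc*, *Gata2* and *Dchs1* by CPM. The first 3 of these are given here, a choice made after their values were seen. *Stab2*, a hyaluronan scavenger receptor of lymphatic and sinusoidal endothelium, had 50, 24 and 41 counts in Sham, 528, 69 and 86 in injured fl/fl and 58, 56 and 62 in iLECko. *Ackr2*, a chemokine-scavenging receptor of LECs, had 90, 17 and 36 in injured fl/fl, against 8 to 14 in Sham and 17 to 29 in iLECko. *Ccl21a*, which encodes a form of the chemokine that draws CCR7-bearing cells into lymphatics, had 1522, 79 and 0 counts in injured fl/fl, 7, 18 and 18 in Sham and 2, 3 and 6 in iLECko. Near-identical copies of *Ccl21a* exist in the mouse genome, so its counts are uncertain. The same library held 5 *Lyve1* and 10 *Cd163* counts, both the lowest of the series, and 79389 counts of the fibroblast gene *Dcn*, against 17541 and 33065 in replicates 2 and 3. *Prox1*, *Mmrn1*, *Stab2*, *Ackr2* and *Ccl21a* thus peaked in the library in which *Lyve1* was lowest.

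*Ccl19*, which encodes the other CCR7 ligand, was among the 3 genes with profiles most like that of *Mmrn1*, at 0.566 against a spread of 1.27 of *Mmrn1* itself. It had 89, 1 and 2 counts in injured fl/fl, 23, 27 and 17 in Sham and 4, 7 and 5 in iLECko. *Gm973* (0.365) and *Abcc6* (0.445) were closer.

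**Figure D4:**
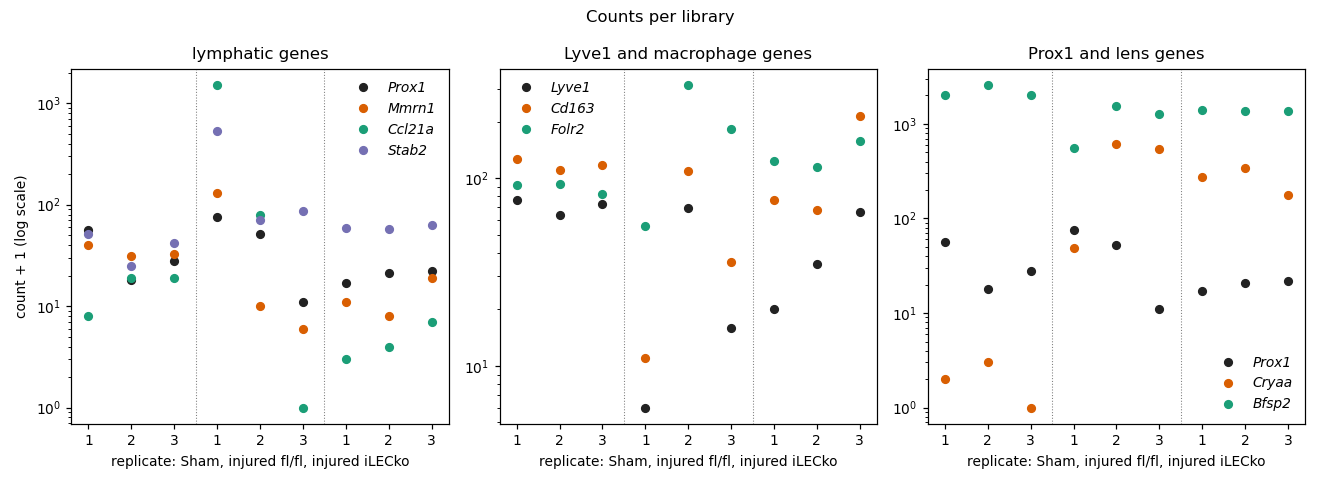
Counts plus 1 on a log scale (y axes) in the 9 libraries (x axes, replicates of Sham, injured fl/fl and iLECko, separated by dotted lines). The first panel holds *Prox1*, *Mmrn1*, *Ccl21a* and *Stab2*, of which *Ccl21a* and *Stab2* were chosen after their values were seen. The others hold *Lyve1* with macrophage genes, and *Prox1* with the lens genes *Cryaa* and *Bfsp2*. Injured fl/fl replicate 1 was the lowest of its group for 8 of 19 other lymphatic genes. *Mmrn1*, *Ccl21a* and *Stab2* peak in injured fl/fl replicate 1 (130, 1522 and 528 counts), where *Lyve1* and *Cd163* are lowest.

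For *Sox18*, *Reln*, *Pdpn*, *Ccbe1* and *Foxc2*, similar profiles were closer. *Sox18* was nearest to *Ssh2* (0.063, against a spread of 0.71 of *Sox18* itself), *Ifngr1* (0.0865) and *Cyrib* (0.0896), and *Reln* to *Adgrv1* (0.0969, against 0.833), *Slc6a9* (0.114) and *Bmp2* (0.119). *Pdpn* was nearest to *Dnajc25* (0.0779, against 0.356), *1810055G02Rik* (0.102) and *Xbp1* (0.105), *Ccbe1* to *Tet2* (0.0894, against 0.355), *Prex2* (0.109) and *9030624G23Rik* (0.112), and *Foxc2* to *Cda* (0.186, against 1.01), *Slc17a9* (0.195) and *Loxl1* (0.199). *Prox1* had the loosest match beside its own spread, with *Crym* at 0.407 against 0.854, followed by *Gpr20* (0.471) and *B3gat1* (0.498). These are descriptions over 9 libraries that share the group differences.

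Levels of different genes were compared on an approximate TPM scale, which divides by the longest transcript. In Sham the order was *Pdpn* (532 TPM), *Reln* (124), *Sox18* (50.7), *Ccbe1* (9.19), *Lyve1* (3.91), *Foxc2* (3.03), *Mmrn1* (1.21) and *Prox1* (0.676). *Lyve1* and *Foxc2* overlapped across libraries in this order, at 3.37 to 4.32 and 2.5 to 3.45 TPM, as did *Mmrn1* and *Prox1*, at 1.04 to 1.43 and 0.333 to 1.14. In injured fl/fl, *Sox18* (125 TPM) passed *Reln* (25.1), and *Foxc2* (11.2) passed *Lyve1* (1.43). With the median transcript length, *Reln* was at 237 TPM in Sham and *Sox18* at 21.2, and in injured fl/fl they were at 50.9 and 55.2, close to one another. On that scale *Prox1* (0.678 TPM) stood above *Mmrn1* (0.505) in Sham.

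Of the 19 other lymphatic genes examined, 8 rose and 4 fell after injury, beside 22.1% called higher and 17.5% called lower among all genes tested. Their median log2 fold change was 0.39. In the VEGF-C pathway, *Vegfc* itself had 292, 277 and 290 counts in Sham and 298, 240 and 195 in injured fl/fl (-0.15; edgeR adjusted p = 0.424). *Vegfd*, the other VEGFR3 ligand, fell by 1.43 (edgeR adjusted p = 3.86e-05), from 302 to 375 counts to 117 to 131. *Adamts3*, the protease that activates VEGF-C together with CCBE1, rose by 1.40 (edgeR adjusted p = 0.00657), and the coreceptor *Nrp2* was at 0.37 (edgeR adjusted p = 0.0157), less than 1.5-fold. *Vegfd* and *Adamts3* thus moved in opposite directions in RNA of the trimmed iris.

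Among transcription factors of the lineage, *Nr2f2* (COUP-TFII), which works with SOX18 on *Prox1*, fell by 0.71 (edgeR adjusted p = 3.93e-05), and *Tbx1* fell by 1.69 (edgeR adjusted p = 2.07e-05). *Hhex* rose by 2.21 (edgeR adjusted p = 1.06e-05) and *Nfatc1*, active in valve formation, by 1.93 (edgeR adjusted p = 1.51e-06). *Gata2* was at 0.38 (edgeR adjusted p = 0.145). Of genes tied to valves and junctions, *Itga9* fell by 1.26 (edgeR adjusted p = 0.000279), while *Cldn11* rose by 2.78 (edgeR adjusted p = 0.000568). *S1pr1*, a sphingosine 1-phosphate receptor of all endothelium, rose by 1.87 (edgeR adjusted p = 2.32e-05). The flow sensor *Piezo1* and the cadherins *Fat4* and *Dchs1* were not called.

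The remaining called genes of the list were *Ccl21a* (5.32; edgeR adjusted p = 0.0226), *Stab2* (2.67; 0.0126) and *Ackr2* (2.28; 0.00946), of which *Ccl21a* overlapped between the groups. Without injured fl/fl replicate 1, *Ccl21a* was no longer called (1.51; edgeR adjusted p = 0.28), while *Stab2* (1.06; 0.0128) and *Ackr2* (1.39; 0.0268) were, at lower values, so that 7 genes of the list were called higher and 4 lower.

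**Figure D5:**
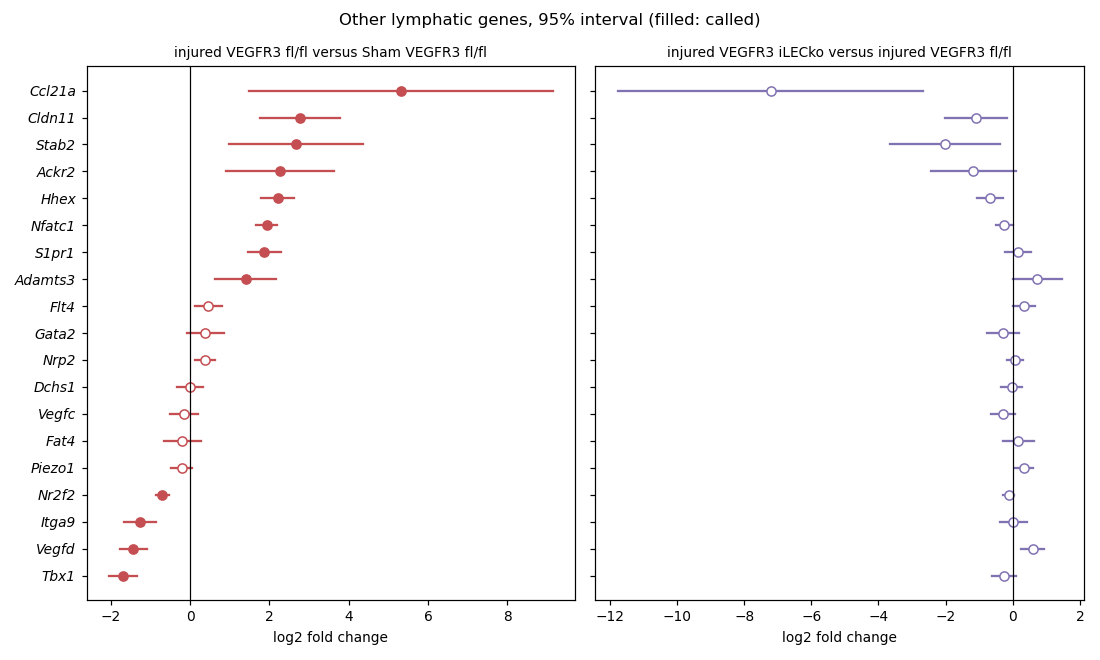
Log2 fold changes (x axes, scaled separately) of 19 other lymphatic genes after injury (left) and between the injured groups (right), with 95% intervals as lines and filled points for called genes. On the left 8 genes are called higher and 4 lower, and on the right no point is filled.

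Between the injured groups, 0 of the 19 other lymphatic genes were called by edgeR, beside 1.04% of all genes tested, with a median of -0.12 log2. DESeq2 called 1 higher and 2 lower, beside 626 of all 15010 genes tested. At an unadjusted p under 0.05 edgeR gave 8 of the 19, beside 24.5% of all genes. *Ccl21a* was at -7.21 (edgeR adjusted p = 0.0877) with all libraries and at -3.41 (0.225) without injured fl/fl replicate 1, and *Stab2* at -2.01 (0.146) and -0.41 (0.505). *Vegfd* was at 0.59 (edgeR adjusted p = 0.0717), *Hhex* at -0.68 (0.0742) and *Vegfc* at -0.30 (0.266). Of the 56 tested genes of the blood endothelial, fibroblast, lens, neuronal and retinal, surface epithelial and platelet lists, 0 were called by edgeR in this comparison, 12 had an unadjusted p under 0.05, and DESeq2 called 3. The shares over all genes given for the 19 apply to these counts as well.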

How the data were processed

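Iris RNA of 9 libraries was measured as estimated counts per gene, which the authors deposited without normalization, with 9.83% to 10.3% of a library's values not whole. Per the submitters' processing notes, HISAT2 2.0.4, Bowtie2 2.2.5, DESeq2 1.4.5 and mm10 were used on reads of 50 bases. The program that estimated the counts and the strandedness of the library kit are not given in the sources used here. Groups were taken from titles, descriptions and treatments. The genotype tags of iLECko replicates 2 and 3 named another VEGFR number and were not followed. A combined table repeated the same values and was not used.

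Counts were rounded, filtered by filterByExpr of edgeR 4.0.16 (R 4.3.3), normalized by TMM (factors 0.90 to 1.087) and fitted with group as the only term by edgeR's quasi-likelihood test. Each SE was computed from the F statistic. DESeq2 1.42.0 served as an alternative. Approximate TPM used GENCODE M21 transcript lengths, available for 97.6% of the genes. Similar profiles used log2 CPM with a prior count of 2. For a gene with at most 3 counts in every library of a group, the list median was also taken with its fold bound from 3 counts, which covers counting error only. The procedure was tested on simulated data. Genes named beside the members were the 3 closest profiles of each, all 19 other lymphatic genes and the leading genes of the marker lists. *Folr2*, *Cd163*, *Ccl19*, *Dcn*, *Rbfox3*, *Tubb3*, *Flt1*, *Cldn5* and the iris genes were chosen for display after their values were seen. The members and lists were chosen with earlier results of these data known. Alternatives covered normalization, filter, test, libraries, fold threshold, a replicate block and each library left out in turn. Results on 2 genes of the lists are not reported here, and the lists are counted without them.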

Additional observations from a re-analysis of the deposited data

How the results depend on the processing

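Over 359 recomputed log2 fold changes of the members, 338 kept their direction and their side of the threshold, 10 were no longer called, 4 became called and 7 turned direction. Without injured fl/fl replicate 1, *Prox1* and *Mmrn1* turned after injury, and *Lyve1* (-0.094), *Foxc2* and *Mmrn1* turned between the injured groups, where *Lyve1* also turned without iLECko replicate 3. With each library left out in turn, these values ran from -0.054 to 1.105 for *Prox1* and -2.196 to 1.155 for *Mmrn1* after injury, and from -0.174 to 1.933 for *Lyve1*, -0.406 to 0.111 for *Foxc2* and -2.633 to 0.719 for *Mmrn1* between the injured groups. With a replicate block, *Mmrn1* was -0.18 after injury. Replicate numbers did not pair the samples: of 9 pairs with the same number, correlations of deviations ran from -0.39 to 0.13, 1 was over 0.1, and 2 of 9 libraries correlated best with their own number. Between the injured groups the called members went from 1, *Reln*, to 0 with the 6 libraries alone (2 at an unadjusted p under 0.05), the block (3; edgeR adjusted p of *Reln* 0.0721) and a 2-fold threshold (3), by edgeR, while DESeq2 called 1. With a library left out it was 0 to 2, against 4 to 5 after injury and 5 to 6 for iLECko against Sham, where a 2-fold threshold gave 3. Scaling by library size alone moved the median of all genes after injury from 0.01 to -0.162. The cause of these changes was not tested. *Mmrn1* was filtered out between the injured groups with the 6 libraries alone. At 5 to 130 counts, *Prox1*, *Lyve1* and *Mmrn1* had the widest intervals of the members, and 3 pools a group limit the precision of all.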
